A study of Homo sapiens with 10 samples.

Results

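A set of 10 genes of the transforming growth factor beta (TGF-beta) pathway was followed in the RNA-seq counts of MCF10A cells. They were chosen by symbol from a list of names and are the ligand genes TGFB1, TGFB2, TGFB3, INHBA and BMP4, the receptor genes TGFBR1 and TGFBR2, the signal transducer genes SMAD3 and SMAD7, and TGFBI, which encodes a secreted matrix protein. The choice was made with earlier results of these data known. All 10 had a row among the 26256 genes counted in the untreated libraries and among the 55736 genes counted in the Nutlin-3a experiment. MCF10A cells are human breast epithelial cells that divide in culture without limit and are not tumour cells. G12V cells are MCF10A cells that received a mutant HRas gene by virus together with a vector for GFP, were selected as a population in hygromycin, and were not cloned as far as the methods state. The 2 MCF10A and 2 G12V libraries were untreated. A separate set of 3 and 3 libraries came from parental MCF10A cells given 10 µM Nutlin-3a, which frees p53 from its inhibitor MDM2, or the vehicle DMSO, each for 4 h. All cells were grown with horse serum, EGF, insulin, hydrocortisone and cholera toxin, and serum itself carries TGF-beta family ligands.

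TGF-beta ligands are secreted in a latent form, are released by integrins, thrombospondin and proteases, and bind a complex of the type II receptor TGFBR2 and the type I receptor TGFBR1. The receptors phosphorylate SMAD2 and SMAD3, which enter the nucleus with SMAD4 and switch on targets that include SMAD7, an inhibitor that closes the loop at the receptor. In mammary epithelium the pathway is known for halting the cell cycle and, in cells that carry an active RAS, for its part in the loss of epithelial traits. Activins, of which INHBA encodes a subunit, signal through the same SMADs, and bone morphogenetic proteins such as BMP4 through SMAD1, SMAD5 and SMAD9.

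The promoters of 4 of these genes are shown because they are the ones whose call depended on the test, as described below. Each line gives the 250 bases before a RefSeq start, taken from the RefSeq promoter table of GRCh38.p14 and found unchanged in GRCh37, the build of the counts. All 10 genes had such a window in GRCh37. For the 4 genes shown, the start lay 2 to 27 bases from the gene start listed with the untreated counts. The distance was 18 bases for INHBA, 93 for TGFBI, 99 for TGFBR2, 254 for SMAD7, 255 for SMAD3 and 1786 for BMP4. Capitals mark the letters CAGAC, or GTCTG on the other strand, the short box that SMAD3 and SMAD4 can bind.
TGFB1, chr19:41859828-41860077, minus strand: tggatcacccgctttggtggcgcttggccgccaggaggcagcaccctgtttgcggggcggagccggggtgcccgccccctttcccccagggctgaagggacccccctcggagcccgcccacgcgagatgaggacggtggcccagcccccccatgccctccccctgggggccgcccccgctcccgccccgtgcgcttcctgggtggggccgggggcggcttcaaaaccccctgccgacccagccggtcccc
TGFB2, chr1:218518428-218518677, plus strand: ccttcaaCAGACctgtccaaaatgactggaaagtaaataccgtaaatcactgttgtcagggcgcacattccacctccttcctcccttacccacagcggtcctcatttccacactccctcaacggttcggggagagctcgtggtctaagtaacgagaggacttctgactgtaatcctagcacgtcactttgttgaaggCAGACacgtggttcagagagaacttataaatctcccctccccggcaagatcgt
TGFB3, chr14:76448339-76448588, minus strand: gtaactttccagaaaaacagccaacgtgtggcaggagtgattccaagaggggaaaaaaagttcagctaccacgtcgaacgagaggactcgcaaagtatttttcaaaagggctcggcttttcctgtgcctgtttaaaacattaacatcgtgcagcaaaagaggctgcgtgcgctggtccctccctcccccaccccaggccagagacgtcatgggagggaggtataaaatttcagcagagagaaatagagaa
TGFBR1, chr9:101867115-101867364, plus strand: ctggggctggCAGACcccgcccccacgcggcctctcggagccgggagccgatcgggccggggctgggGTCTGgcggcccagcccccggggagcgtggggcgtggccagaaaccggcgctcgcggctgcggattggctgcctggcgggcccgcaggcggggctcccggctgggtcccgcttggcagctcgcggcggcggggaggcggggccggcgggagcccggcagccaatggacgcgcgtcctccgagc
TGFB2 and TGFBR1 held 2 boxes each and TGFB1 and TGFB3 held 0. Over the 10 genes, 4 windows had a box (TGFB2, BMP4, TGFBR1 and SMAD7), against 38.0% of the 35116 RefSeq windows of the same length. The letters TGANTCA, an AP-1 site searched on both strands by the same pattern because it is its own reverse complement, were in 0 of the 10 windows and in 6.57% of all windows. These matches describe letters in a window and are not measured sites.

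The untreated libraries held 21538593 to 23683975 counts and the Nutlin-3a experiment 15453226 to 17378734, so each gene below is described in CPM, the count scaled to a common library total after TMM adjustment of the library sizes. HRAS, the label check, averaged 573 CPM (SD 82.0, n = 2) in the G12V libraries against 69.3 CPM (SD 4.77, n = 2) in the parental ones. Of 6 epithelial markers, 4 were called lower in G12V cells (CDH1, EPCAM, KRT5 and KRT14), and the summed level of all 6 was 4902 to 5905 CPM in MCF10A and 1361 to 1661 CPM in G12V cells. Most of the epithelial sum was KRT5, at 3714 and 4675 CPM in MCF10A and 936 and 1220 CPM in G12V cells. KRT18 was lower without a call. KRT8 went the other way with overlapping groups, at 219 and 172 CPM in MCF10A and 211 and 233 CPM in G12V cells. Of 7 mesenchymal markers, CDH2 and LUM were called higher, COL1A2 had 0 or 1 read, and the sum of the 7 was 842 to 1061 CPM in MCF10A and 1387 to 1802 CPM in G12V cells. Most of that sum was VIM, at 774 and 972 CPM in MCF10A and 1230 and 1626 CPM in G12V cells, which was not called. COL1A1 went the other way without a call, at 11.5 and 5.86 CPM in MCF10A and 3.25 and 4.64 CPM in G12V cells. The groups overlapped for DCN and PDGFRB. The blood markers PTPRC and CD3E had 0 or 1 read in each untreated library, while CD14 had 396 to 888, and the endothelial VWF had 0 to 4. The epithelial and mesenchymal sums moved with the same contrast as every G12V result below, and their part in those results was not tested. In such bulk RNA, fewer cells with a transcript and less of it per cell cannot be told apart. The methods call the libraries biological replicas without saying how cultures were separated, so p-values measure the spread between these libraries.

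G12V cells were first compared with MCF10A cells to ask which steps of the pathway differed after the introduction of the oncogene. All 3 TGF-beta ligand genes had more RNA in both G12V libraries than in either MCF10A library, and TGFBR1, SMAD7 and TGFBI had less in both. None of the 10 genes reached the threshold of an adjusted p under 0.05 with an absolute log2 fold change above 0.5 in edgeR's quasi-likelihood test, by which 11.0% of the 14376 tested genes were called, 5.01% higher and 5.95% lower. At an unadjusted p under 0.05 there were 6 of the 10, 3 higher and 3 lower, where 25.6% of all tested genes passed. The groups did not overlap in 7 of the 10, against 54.8% of all tested genes. DESeq2 and edgeR's exact test each called 4 of the 10, namely TGFB1, TGFB2 and TGFB3 as higher and TGFBR1 as lower, where they called 16.0% and 17.6% of all tested genes. The median log2 fold change of the 10 was 0.37 and the median of its absolute value 0.81, beside -0.0011 and 0.36 over all tested genes. Because the 10 genes were chosen with earlier results of these data known, these shares and medians are no test of the set.

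**Figure D1:**
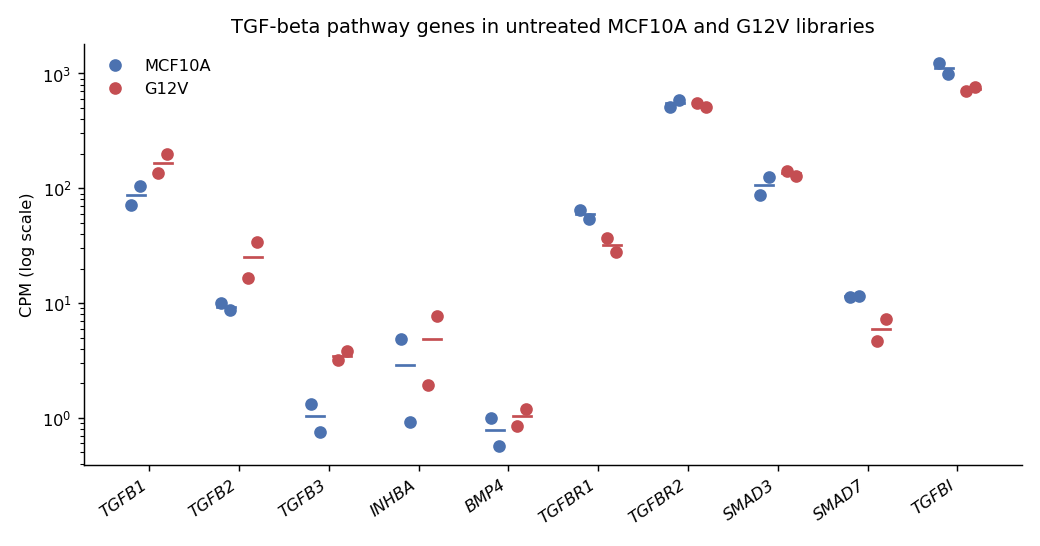
CPM on a log scale for the 10 genes in the 2 MCF10A libraries (blue) and the 2 G12V libraries (red), where each point is 1 library and each bar the mean of its group. The red points of TGFB1, TGFB2 and TGFB3 lie above the blue ones, those of TGFBR1, SMAD7 and TGFBI below, and the colours are interleaved for INHBA, BMP4 and TGFBR2.

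TGFB1, on chromosome 19 from 41836436 to 41859838 on the minus strand, encodes the best-studied ligand of the family. Its level was 71.1 and 104 CPM in the MCF10A libraries and 136 and 197 CPM in the G12V libraries. Both G12V values lay above both MCF10A values, and replicates of a group differed by 1.46-fold in MCF10A and 1.44-fold in G12V cells. The log2 fold change was 0.93 (SE 0.28), with a 95% interval of 0.25 to 1.61 and an adjusted p of 0.0929 by edgeR's quasi-likelihood test. By DESeq2 the adjusted p was 0.0323, and over all 11 fits made for this gene it ran from 2.33e-04 to 0.343. TGFB1 was called without G12V replicate 1 (adjusted p 0.0208 by edgeR) and without MCF10A replicate 2 (0.0435).

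TGFB2 lies on chromosome 1 from 218518676 to 218617961 on the plus strand, and its product, unlike that of TGFB1, binds the receptors well only with the help of the coreceptor TGFBR3. Its level was 10.0 and 8.63 CPM in MCF10A and 16.7 and 34.0 CPM in G12V cells. The G12V libraries were both higher but differed by 2.04-fold between themselves, against 1.16-fold in MCF10A. The log2 fold change was 1.44 (SE 0.38), with a 95% interval of 0.51 to 2.37 and an adjusted p of 0.0677 by edgeR's quasi-likelihood test. DESeq2 gave an adjusted p of 0.00483, and the 11 fits gave 0.00144 to 0.274. Without G12V replicate 1, the lower of its group, the log2 fold change was 1.86 and the gene was called, and without G12V replicate 2 it was 0.84, with an adjusted p of 0.196. The antisense gene TGFB2-AS1 had 0 to 3 reads in these libraries.

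TGFB3, on chromosome 14 from 76424440 to 76448365 on the minus strand, was the least abundant of the 3 ligands, with 29 and 17 reads in MCF10A and 74 and 85 reads in the G12V libraries. These correspond to 1.32 and 0.749 CPM in MCF10A and to 3.16 and 3.79 CPM in G12V cells, and the groups did not overlap. It had the largest log2 fold change of the 10 genes, 1.75 (SE 0.43), with a 95% interval of 0.70 to 2.79 and an adjusted p of 0.0541 by edgeR's quasi-likelihood test. DESeq2 gave an adjusted p of 0.0235, and the 11 fits gave 0.00374 to 0.269. Leaving out G12V replicate 1 gave a call (log2 fold change 1.87, adjusted p 0.0346), and leaving out MCF10A replicate 1 or 2 gave log2 fold changes of 2.23 and 1.39 without a call.

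The other 2 ligand genes did not separate the groups. INHBA, on chromosome 7 from 41728601 to 41742706 on the minus strand, had 4.86 and 0.925 CPM in MCF10A and 1.92 and 7.72 CPM in G12V cells. The replicates of 1 group therefore differed by 5.26-fold in MCF10A and 4.01-fold in G12V cells, more than the fitted log2 fold change of 0.74 (SE 0.90, adjusted p 0.690 by edgeR), whose 95% interval was -1.47 to 2.94. Without G12V replicate 2 the sign turned, to -0.59. Its antisense neighbour INHBA-AS1 had 4 to 11 reads. BMP4, on chromosome 14 from 54416455 to 54423554 on the minus strand, had 22 and 13 reads in MCF10A and 20 and 27 reads in the G12V libraries, with overlapping groups (log2 fold change 0.39, SE 0.48, adjusted p 0.689 by edgeR). The 95% interval was -0.77 to 1.55.

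Of the receptor genes, TGFBR1 separated the groups and TGFBR2 did not. TGFBR1, the type I receptor kinase gene on chromosome 9 from 101867371 to 101916473 on the plus strand, had 64.1 and 54.4 CPM in MCF10A and 36.9 and 27.7 CPM in G12V cells. Both G12V libraries were below both MCF10A libraries. The log2 fold change was -0.88 (SE 0.23), with a 95% interval of -1.43 to -0.32 and an adjusted p of 0.0636 by edgeR's quasi-likelihood test. DESeq2 gave an adjusted p of 0.0177, the 11 fits gave 7.10e-04 to 0.337, and the gene was called without G12V replicate 1 (log2 fold change -1.10, adjusted p 0.0249). TGFBR2, the type II receptor gene on chromosome 3 from 30647994 to 30735633 on the plus strand, had 515 and 583 CPM in MCF10A and 557 and 508 CPM in G12V cells. Its groups overlapped and its log2 fold change was -0.04 (SE 0.21, 95% interval -0.57 to 0.48, adjusted p 0.939 by edgeR). The difference between the changes of the 2 receptor genes was not tested.

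SMAD3, on chromosome 15 from 67358195 to 67487533 on the plus strand, encodes the transducer of TGF-beta and activin signals that binds DNA. It had 87.0 and 125 CPM in MCF10A and 141 and 129 CPM in G12V cells. The G12V libraries were just above the higher MCF10A library, and the log2 fold change of 0.34 (SE 0.23, 95% interval -0.21 to 0.90, adjusted p 0.423 by edgeR) was within the spread of the replicates. SMAD7, the inhibitory SMAD on chromosome 18 from 46446223 to 46477081 on the minus strand, had 11.4 and 11.5 CPM in MCF10A and 4.70 and 7.23 CPM in G12V cells. The MCF10A replicates were nearly equal, both G12V libraries were lower, and the log2 fold change was -0.94 (SE 0.32, 95% interval -1.72 to -0.16, adjusted p 0.127 by edgeR). DESeq2 gave an adjusted p of 0.0720 for SMAD7, and the 11 fits gave 0.0103 to 0.362.

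TGFBI, named for its induction by TGF-beta and located on chromosome 5 from 135364584 to 135399507 on the plus strand, was the most abundant of the 10 genes. It had 1230 and 997 CPM in MCF10A and 705 and 763 CPM in G12V cells, lower in both. The log2 fold change was -0.60 (SE 0.24), and its 95% interval of -1.20 to -0.0066 ended close to 0, with an adjusted p of 0.191 by edgeR's quasi-likelihood test. DESeq2 gave 0.0764 and the 11 fits 0.00991 to 0.506. The 6 genes with an unadjusted p under 0.05 were thus 3 ligand genes with more RNA and 1 receptor, 1 inhibitor and 1 target gene with less.

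Levels between genes were compared per kilobase of the canonical transcript. INHBA is listed from 41728601 with the untreated counts but from 41724712 in the Nutlin-3a experiment. The untreated row thus leaves out the 3′ part of the gene as listed there, so the values and places of INHBA below may be too low. In MCF10A the order ran from TGFBI, with a mean of 411 CPM per kilobase, through TGFBR2 (121), TGFB1 (31.5), SMAD3 (16.4), TGFBR1 (9.13), SMAD7 (3.43) and TGFB2 (1.59) to INHBA (0.479), BMP4 (0.407) and TGFB3 (0.301). On these lengths the ranges of the last 3 overlapped and those of the other neighbours did not. In G12V cells the first 5 stood in the same order, at 271, 118, 60.0, 20.8 and 4.97 CPM per kilobase, and TGFB2 followed at 4.32 with a range that overlapped that of TGFBR1. SMAD7 was then at 1.79 and TGFB3 at 1.01, above INHBA (0.797) and BMP4 (0.533). The range of INHBA overlapped those of TGFB3 and BMP4, while the ranges of TGFB3 and BMP4 did not overlap each other.

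**Figure D2:**
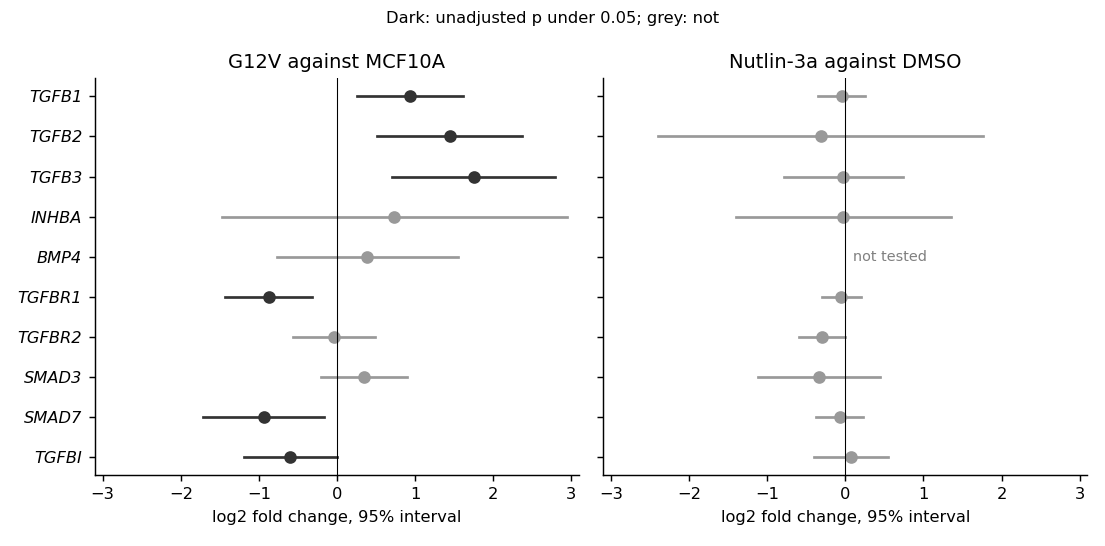
Log2 fold change of each gene (point) with its 95% interval (line) for G12V against MCF10A cells at left and Nutlin-3a against DMSO at right, dark where the unadjusted p was under 0.05. At left the 6 dark lines are TGFB1, TGFB2, TGFB3, TGFBR1, SMAD7 and TGFBI, at right there are 0, and BMP4 was not tested at right. The fit at right did not pair the same-numbered libraries.

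The rest of the pathway was then described from 8 lists holding 76 further genes, of which 57 were tested in this comparison. By edgeR's quasi-likelihood test 4 were called higher and 6 lower in G12V cells, beside the 5.01% and 5.95% of all tested genes. The median log2 fold change of the 57 was -0.22 and the median absolute value 0.55. The lists too were chosen with earlier results known, so these shares are no test of them. One limit holds for all 10 of these calls: without MCF10A replicate 1 the fit called 0 of 14883 tested genes, although the sign of all 10 log2 fold changes was the same as with all libraries.

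Among the other ligands, 2 of 9 tested genes were called, both higher, with a list median of 0.32. GDF11, a ligand of the activin receptors, had 5.64 and 4.01 CPM in MCF10A and 16.5 and 16.1 CPM in G12V cells (log2 fold change 1.76, SE 0.29, adjusted p 0.0173 by edgeR). It was not called without MCF10A replicate 2 (adjusted p 0.0575). BMP6 had 15 and 3 reads in MCF10A and 67 and 228 reads in the G12V libraries (log2 fold change 3.99, SE 0.90, adjusted p 0.0441 by edgeR), and its log2 fold change ran from 2.81 without G12V replicate 2 to 5.57 without MCF10A replicate 1. The paralogs BMP2 and BMP7 had log2 fold changes of 0.72 and 0.32 with overlapping groups, and INHBB was not tested, at 2 to 6 reads. GDF15 spanned 128 to 2439 reads between the 2 G12V libraries, and its log2 fold change of 1.53 had an adjusted p of 0.502 by edgeR. Its call and direction turned on which G12V library was kept: GDF15 was called higher without G12V replicate 1, at 2.46, and lower without G12V replicate 2, at -1.85.

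Of the genes listed under latency and activation of TGF-beta, 9 were tested and 3 were called, all lower in G12V cells. The list median was -0.76, and all 9 log2 fold changes were below 0, as were those of 7202 of the 14376 tested genes. The groups overlapped for ITGB8 and for LTBP4, whose log2 fold change of -0.09 ran from -0.22 to 0.075 over the 11 fits. ITGB8 was called lower without G12V replicate 2 (log2 fold change -1.51, adjusted p 0.0119 by edgeR) and with the replicate block. ITGB6, the beta subunit of the integrin that activates latent TGF-beta on epithelia, had 92.2 and 58.2 CPM in MCF10A and 6 and 2 reads in the G12V libraries (log2 fold change -8.71, SE 0.50, adjusted p 8.46e-04 by edgeR). LTBP2, a protein of microfibrils from the family of latent TGF-beta binding proteins, fell from 271 and 276 CPM to 66.7 and 75.4 CPM (log2 fold change -1.94, SE 0.19, adjusted p 0.00359 by edgeR). THBS1, thrombospondin-1, which can release the latent ligand, had 2748 and 1310 CPM in MCF10A and 489 and 388 CPM in G12V cells (log2 fold change -2.21, SE 0.41, adjusted p 0.0247 by edgeR). Its higher MCF10A value was that of replicate 1, and without MCF10A replicate 1 the log2 fold change was -1.55. LTBP1, which covalently binds the latent ligand complex, had a log2 fold change of -1.19 and an adjusted p of 0.0570, and was called by DESeq2 and by the exact test.

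Of the other receptors 10 were tested and 2 were called, both higher, with a list median of -0.30. BMPR2 had less RNA in both G12V libraries (log2 fold change -0.78, adjusted p 0.0517 by edgeR's quasi-likelihood test). DESeq2 and the exact test called BMPR2 lower. ENG, the coreceptor endoglin, had 81.5 and 72.5 CPM in MCF10A and 140 and 146 CPM in G12V cells (log2 fold change 0.89, SE 0.17, adjusted p 0.0272 by edgeR). ACVRL1, the type I receptor ALK1 known from endothelium, had 6 and 3 reads in MCF10A and 26 and 42 reads in the G12V libraries (log2 fold change 2.85, SE 0.58, adjusted p 0.0308 by edgeR). Neither was called without MCF10A replicate 2 (adjusted p 0.151 and 0.137) or without G12V replicate 2 (0.0697 and 0.0714). Of the endothelial markers, PECAM1 had 37 to 82 reads and CDH5 had 0 to 16, with 16 in G12V replicate 2, and their part in the ENG and ACVRL1 values was not tested. TGFBR3, the coreceptor that presents TGFB2, had a log2 fold change of -0.96 and an adjusted p of 0.205 by edgeR. Without MCF10A replicate 2 its log2 fold change was -0.30, and with the replicate block it was called lower (adjusted p 0.00257).

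Of the other SMAD genes none of the 5 tested was called by edgeR's quasi-likelihood test, by DESeq2 or by the exact test, 0 had an unadjusted p under 0.05, and the list median was 0.012. SMAD2 had 117 and 126 CPM in MCF10A and 114 and 121 CPM in G12V cells. The log2 fold changes of SMAD2, SMAD4 and SMAD5 were -0.05, 0.15 and 0.012, with overlapping groups. The BMP transducers SMAD1 and SMAD9 had groups that did not overlap, with log2 fold changes of -0.54 (adjusted p 0.250 by edgeR) and 0.57 (adjusted p 0.245), and SMAD1 was called lower with the replicate block (adjusted p 0.0278). SMAD6, the other inhibitory SMAD, had 6 to 13 reads and was not tested. Of the secreted antagonists 3 were tested and 0 called by edgeR's quasi-likelihood test, 1 with an unadjusted p under 0.05. This was FST, follistatin, which binds activins, with 106 and 90 reads in MCF10A and 14 and 36 reads in the G12V libraries (log2 fold change -1.99, adjusted p 0.0668), and DESeq2, the exact test and the fit without G12V replicate 2 called it lower.

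Among 9 intracellular regulators 1 was called, PMEPA1, an inhibitor of SMAD2 and SMAD3 that is itself induced by TGF-beta and so also stands among the targets. It fell from 155 and 75.8 CPM to 11.5 and 16.4 CPM (log2 fold change -3.05, SE 0.40, adjusted p 0.00828 by edgeR), which became -2.42 when MCF10A replicate 1 was left out. The list of other TGF-beta targets had 10 tested genes, 6 above and 4 below 0, with a median of 0.17. The 2 called were PMEPA1 and TAGLN, the actin-binding protein transgelin, which had 121 and 27.1 CPM in MCF10A and 35 reads in each of the G12V libraries (log2 fold change -5.59, SE 0.79, adjusted p 0.0104 by edgeR). The MCF10A replicates of TAGLN differed by 4.46-fold, and its log2 fold change was -4.12 without the higher one. CDKN2B, another gene of this list, had 0 reads in all 4 libraries. TSC22D1, also on it, had a log2 fold change of 1.01 (adjusted p 0.0935 by edgeR), and DESeq2 and the exact test called it higher. Of 4 tested BMP targets 1 was called, ID3, an inhibitor of helix-loop-helix factors, which fell from 64.8 and 45.9 CPM to 12.1 and 6.56 CPM (log2 fold change -2.57, SE 0.36, adjusted p 0.0104 by edgeR), while ID1 had a log2 fold change of 0.76 (adjusted p 0.213). ID2 had 77 and 28 reads in MCF10A and 16 and 7 reads in the G12V libraries (log2 fold change -2.23, adjusted p 0.0968 by edgeR). DESeq2 and the exact test called ID2 lower.

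**Figure D3:**
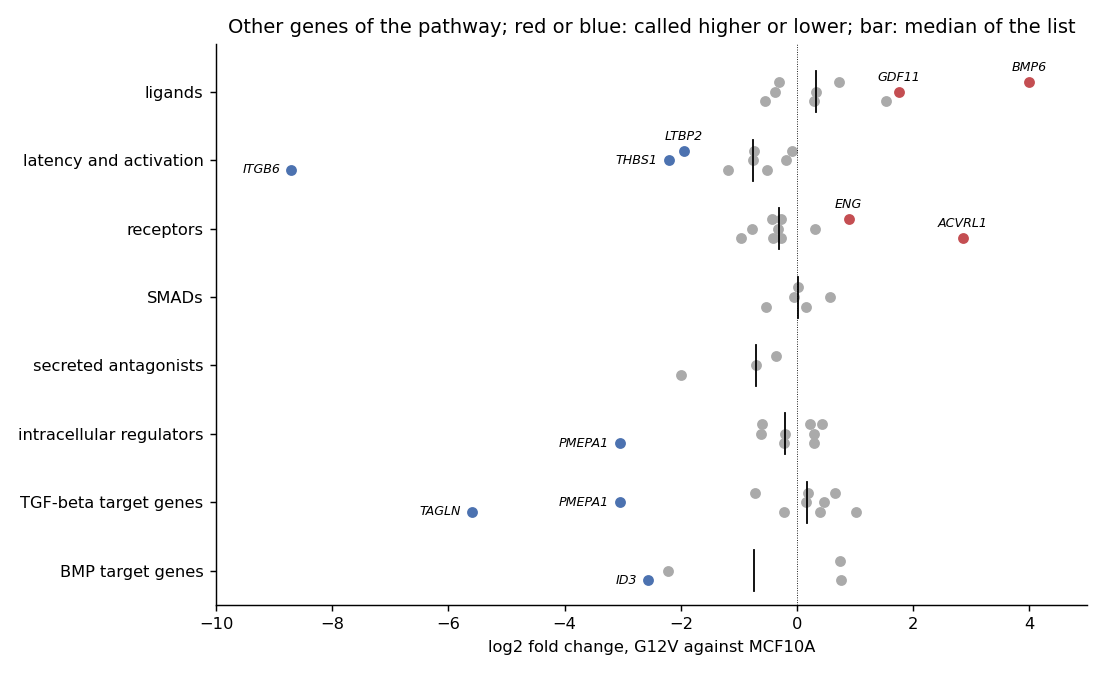
Log2 fold change of G12V against MCF10A cells for the tested genes of each list other than the 10 genes above, where each point is 1 gene, red or blue points with names were called higher or lower, and the bar is the median of the list. PMEPA1 stands in 2 lists. The points of the latency and activation list lie below 0, while the called genes of the ligand and receptor lists lie above it.

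Nutlin-3a was compared with DMSO to ask whether 4 h of p53 activation moved the same genes in parental MCF10A cells. BMP4, with 3 to 16 reads, was not tested. Of the other 9 genes, edgeR's quasi-likelihood test, DESeq2 and the exact test each called 0, all without pairing of same-numbered libraries. By the unpaired quasi-likelihood test 0 had an unadjusted p under 0.05, where 0.170% of the 13529 tested genes were called and 3.42% had such a p. With the replicate number as a block 0 were called as well, and unadjusted p-values of that fit were not counted. The p53 targets MDM2 and CDKN1A rose in the same libraries, with log2 fold changes of 2.54 and 2.16 (adjusted p 0.00133 and 5.16e-04 by edgeR's quasi-likelihood test). The median log2 fold change of the 9 was -0.049, beside 0.0066 over all tested genes.

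TGFBR2 was the 1 gene of the 10 whose groups did not overlap, as in 8.07% of all tested genes. It had 210, 214 and 211 CPM with DMSO and 203, 166 and 147 CPM with Nutlin-3a. The DMSO libraries were nearly equal and the treated ones spread downward from them, lower in 3 of 3 same-numbered pairs. The log2 fold change was -0.30 (SE 0.13), with a 95% interval of -0.60 to 0.0018 and an adjusted p of 1.00 by edgeR's quasi-likelihood test. SMAD3 was also lower in 3 of 3 pairs, at 42.4, 58.2 and 28.2 CPM with DMSO and 35.9, 46.8 and 19.3 CPM with Nutlin-3a, but its groups overlapped widely (log2 fold change -0.34, SE 0.34). With the pairs as a block, in a fit that called 1.22% of all genes, the adjusted p was 0.140 for TGFBR2 and 0.0805 for SMAD3, and neither was called.

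Each tested gene except TGFBR2 had a wider spread between DMSO replicates than within any same-numbered pair. The spread was widest for TGFB2 and INHBA. For the others it ran from 1.18-fold in SMAD7, where pairs differed by up to 1.16-fold, to 2.07-fold in SMAD3, where they differed by up to 1.46-fold. TGFB2 had 11, 179 and 118 reads with DMSO and 13, 125 and 95 reads with Nutlin-3a, an 18.0-fold spread between DMSO replicates where no pair differed by more than 1.42-fold. Replicate 1 was low in both treatments. DCN, from the mesenchymal list, was low in the same libraries, at 12.9 and 14.1 CPM in replicate 1 and 94.5 to 137 CPM in the other 4. The other tested genes of that list were not low there. In DMSO replicates 1, 2 and 3, VIM had 802, 719 and 615 CPM and COL1A1 had 11.7, 10.4 and 9.74 CPM. CDH2 had 37.2, 41.1 and 27.9 CPM in the same libraries. The part of DCN in the spread of TGFB2 was not tested. INHBA had 60.8, 141 and 32.2 CPM with DMSO and 58.6, 138 and 32.7 CPM with Nutlin-3a. Replicate 2 was the highest in both treatments, the spread between DMSO replicates was 4.36-fold, and no pair differed by more than 1.04-fold. The unpaired log2 fold changes of -0.32 for TGFB2 and -0.02 for INHBA therefore had 95% intervals of -2.40 to 1.77 and -1.40 to 1.36.

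TGFBI had 4148, 4952 and 3361 CPM with DMSO and 4585, 5295 and 3267 CPM with Nutlin-3a, again highest in replicate 2 and lowest in replicate 3 of both treatments (log2 fold change 0.08, SE 0.21). TGFB1 had 78.6 to 98.2 CPM with DMSO and 78.8 to 100.1 CPM with Nutlin-3a, TGFBR1 had 63.7 to 78.1 and 66.8 to 70.3 CPM, and SMAD7 had 20.0 to 23.6 and 20.3 to 23.2 CPM. Their unpaired log2 fold changes were -0.05, -0.05 and -0.07, and all 3 intervals lay between -0.37 and 0.26. TGFB3 had 12 to 26 reads in each of the 6 libraries and an unpaired log2 fold change of -0.03, with a wider interval of -0.79 to 0.74. In this table the listed TGFB1 transcript runs from 41807492 to 41847935 on chromosome 19, which leaves out the 5′ part of the gene as listed with the untreated counts, so its TGFB1 count may be partial. It overlaps CCDC97 (558 to 712 reads) and HNRNPUL1 (4317 to 5404 reads) on the other strand, and TGFB3 overlaps IFT43 (207 to 279 reads). The library kit does not mark strand, so reads of these partners cannot be told apart where they overlap.

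**Figure D4:**
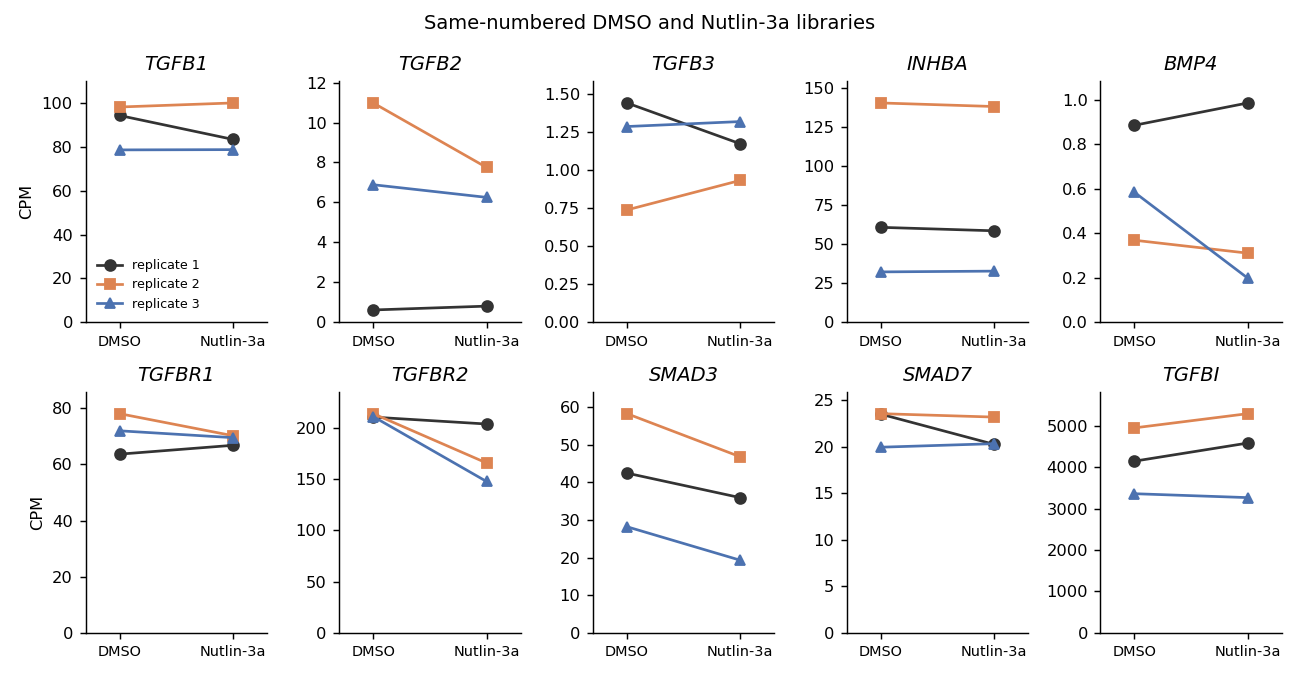
CPM of each of the 10 genes with DMSO and Nutlin-3a on axes that start at 0, where each line joins the libraries of the same replicate number. The lines are close to level and far apart for INHBA and TGFB2 replicate 1, and all 3 slope down for TGFBR2 and SMAD3.

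Of the 76 further genes 52 were tested, and 1 was called, GDF15, a distant member of the ligand family and a known p53 target. It rose from 37.4, 35.4 and 26.4 CPM with DMSO to 210, 218 and 184 CPM with Nutlin-3a (log2 fold change 2.63, SE 0.15, adjusted p 5.16e-04 by edgeR), in 3 of 3 pairs. With the pairs as a block, and also without the filter on low counts, THBS1 was called in addition, with 1608, 2978 and 1624 CPM with DMSO and 1184, 1862 and 1179 CPM with Nutlin-3a. It was lower in 3 of 3 pairs (log2 fold change -0.53, adjusted p 0.00288 with the block, and -0.56 and 1.00 without it by edgeR), and its adjusted p over the 13 fits ran from 0.00288 to 1.00. The median log2 fold change of the 52 genes was -0.077, and over the lists it ran from -0.15 for the BMP targets to 0.064 for the latency and activation genes.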

How the data were processed

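RNA-seq counts of 10 libraries were used. Per the labels and the methods, poly(A) RNA was sequenced from an unstranded kit, reads were aligned to hg19 with TopHat, and the authors deposited raw counts per gene made with HTSeq, without normalization. The untreated libraries and the Nutlin-3a experiment are in separate tables on different annotations, so each was fitted and is described apart. The annotations and the handling of overlapping genes are not given in the sources used here. Gene starts were 0-based in the files and are written 1-based. A library was taken from its column name, 0 columns belonged to other samples, and 0 pairs of libraries were identical.

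In R 4.3.3, edgeR 4.0.16 (filterByExpr, TMM, quasi-likelihood test, Benjamini-Hochberg adjustment over all tested genes) was run on each comparison, as in the study's choice of edgeR, and a gene was called at an adjusted p under 0.05 with an absolute log2 fold change above 0.5. Fold changes carry a prior count of 0.125. The alternatives were edgeR's exact test, DESeq2 1.42.0, relative log expression factors, library totals alone, no filter, the replicate number as a block, and each library left out. The fits were also run on simulated counts. The changes put into these were larger than those of most of the 10 genes, so that run does not bear on calls near the threshold. Both Nutlin-3a and DMSO libraries are numbered 1 to 3 in the labels. After each group mean was removed, same-numbered libraries correlated at 0.649, 0.681 and 0.701, so the numbers were taken as pairs for the block. All other pairs correlated at -0.516 to -0.221. With group means removed, positive same-numbered values make the others negative on average, so the negative values are no separate evidence. The smallest p that an exact permutation test allows is 0.333 with 2 libraries a group and 0.1 with 3, so no such test was used. Windows before RefSeq starts were searched with Python 3.11.15. The 10 genes, the lists, and the naming rule (all 10 genes, every called gene of the lists, the paralogs, and genes that a sentence on a list is about) were chosen with earlier results of these data known.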

Additional observations from a re-analysis of the deposited data

How the results depend on the processing

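The 4 ligand and receptor differences between G12V and MCF10A cells lie near the threshold, and the test decides their call. DESeq2 and the exact test called 3 of the 10 genes higher and 1 lower where the quasi-likelihood test called 0, and leaving out 1 library at a time gave 0 to 3 and 0 to 1. With the replicate number as a replicate block, 3 were called higher and 3 lower (SMAD7 and TGFBI in addition), in a fit that called 4158 of all genes against 1575. The labels share only the numbers 1 and 2 there, and the deviations of same-numbered libraries correlated at 0.554 over too few pairs to establish a pairing. Of the further pathway genes, the 4 called higher became 0 to 6 and the 6 called lower 0 to 10 without 1 library, and DESeq2 and the exact test each called 10 lower and the block 18. For the further genes the 0 calls came without MCF10A replicate 1, where no gene of the whole table was called and the lone MCF10A library is assumed to vary like the others, and the higher calls were 1 without MCF10A replicate 2 and 2 without G12V replicate 2. Over all genes the exact test called 2536, DESeq2 2307, and the fits without 1 library 0 to 2129.

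In the Nutlin-3a experiment the 10 genes had 0 calls in every fit run, and the further genes 1, or 2 without the filter and with the replicate block (THBS1 in addition in both). The block changed no other call among the named genes. Over all genes 23 were called, against 91 by DESeq2, 84 by the exact test, 99 without the filter, 165 with the block and 7 to 11 without 1 library. Leaving out 1 library turned the sign of the log2 fold change of some genes that were not called with all libraries. In G12V cells these were INHBA (-0.59 to 2.38), TGFBR2 (-0.11 to 0.047), BMP7 (-1.04 to 1.00), SMAD4 (-0.024 to 0.30), LTBP4 (-0.22 to 0.075) and GDF15 (-1.85 to 2.46), the last called at both ends. With Nutlin-3a they were TGFB1 (-0.16 to 0.020), TGFB2 (-0.86 to 0.39), TGFB3 (-0.26 to 0.17), INHBA (-0.77 to 0.72), TGFBR1 (-0.12 to 0.021), TGFBI (-0.082 to 0.25), BMP2 (-0.26 to 0.26) and TGFBR3 (-0.43 to 0.071). Of 510 alternative values for 48 single results, 435 kept their direction and side of the threshold. The cause of these shifts was not tested beyond the smaller number of libraries. BMP4, at 3 to 16 reads a library, did not pass the filter in the Nutlin-3a experiment.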

Other observations

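Levels of some of the 10 genes in unperturbed MCF10A cells differed between the 2 sets of libraries. The sets were counted on different annotations, so no test was made. The ranges of TGFB1, TGFB2, TGFB3, TGFBR1 and BMP4 overlapped between the sets. TGFBR1, for example, had 54.4 and 64.1 CPM in the untreated libraries and 63.7 to 78.1 CPM with DMSO. The ranges of the other genes did not overlap. INHBA had 0.925 and 4.86 CPM in the untreated libraries and 32.2 to 141 CPM with DMSO. Its row with the untreated counts starts at 41728601, against 41724712 with DMSO, and so leaves out the 3′ part of this minus-strand gene. How much of the INHBA difference comes from that was not tested. TGFBI had 997 and 1230 CPM and then 3361 to 4952 CPM, while TGFBR2 had 515 and 583 CPM and then 210 to 214 CPM. SMAD3 had 87.0 and 125 CPM in the untreated libraries and 28.2 to 58.2 CPM with DMSO. TGFB1 had 71.1 and 104 CPM and then 78.6 to 98.2 CPM, where the transcript listed for it with DMSO leaves out the 5′ part of the gene, and whether the count covers that stretch is not known. PMEPA1, a TGF-beta target, had 75.8 and 155 CPM in the untreated libraries and 257 to 437 CPM with DMSO. PMEPA1, and TAGLN in the next paragraph, were chosen here after their values were seen.

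Within the DMSO libraries PMEPA1 and TGFBI followed the same replicate order as INHBA. PMEPA1 had 395, 437 and 257 CPM in replicates 1, 2 and 3 and TGFBI had 4148, 4952 and 3361 CPM, each highest in replicate 2 and lowest in replicate 3, as INHBA was at 60.8, 141 and 32.2 CPM. TAGLN did not follow it, at 54.7, 81.2 and 219 CPM. With 3 libraries no relation can be tested.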
